A study of Arabidopsis thaliana with 28 samples.

Results

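Nuclear and cytoplasmic RNA of wild-type Arabidopsis thaliana rosettes was compared across the functions and pathways of the genes. The members are the libraries labelled Col-0, 4 from nuclei and 4 from cytoplasm, of the 18 libraries of the series; the other libraries come from mos11, a mutant of an mRNA export factor, and enter only where a difference between genotypes is given. Col-0 is the wild-type accession and carries no transgene. All plants were grown under long days, with 16 h of light at 21 °C and 8 h of darkness at 18 °C, and rosettes were taken at 14 days. Fractions were prepared by differential centrifugation, external control RNA was added, ribosomal RNA was depleted and molecular identifiers were read. No label tells whether the numbered libraries of a fraction came from different plants, and the p-values therefore describe spread between libraries that may be technical. Each cytoplasmic Col-0 library was sequenced on both flow cells and each nuclear one on the first alone, so that flow cell and fraction cannot be told apart.

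A messenger RNA is made, spliced and polyadenylated in the nucleus, leaves through the nuclear pores with the help of export factors, and is translated and degraded mostly in the cytoplasm. Its share in each fraction therefore reflects how fast it is made, exported and degraded, and total RNA does not separate these steps. In rosette leaves much of the messenger pool encodes photosynthesis proteins that are made on cytosolic ribosomes and imported into chloroplasts. Immune receptors, receptor kinases and transcription factors are encoded by large families with many members of low expression. Long non-coding RNAs have no protein to encode, and some of them are known to act at chromatin.

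The deposited counts summed to 2547560 to 3719008 per nuclear library and to 556016 to 1160001 per cytoplasmic library. The biological coefficient of variation was 17.6% between nuclear and 23.5% between cytoplasmic libraries. Mesophyll markers were all present, among them RBCS1A, CA1 and RCA, and summed to 4712 to 7110 raw CPM, counts scaled to a fixed library total, in nuclei and 37510 to 45452 CPM in cytoplasm. Storage proteins of seeds (SESA1, SESA3) and the floral regulator AP3 had no count in any Col-0 library, and the summed flower, seed and root lists stayed below 20 CPM throughout. The 4 guard cell markers were all higher in nuclei, summing to 153 to 249 CPM there against 24.4 to 41.4 CPM in cytoplasm, and 3 of 4 epidermal markers likewise, with all 4 summing to 686 to 771 CPM against 187 to 312 CPM. These sums are raw, while the calls rest on the scaling described below. No phloem, xylem or trichome marker was higher in nuclei, and SEOR1 of phloem and GL2 of trichomes were higher in cytoplasm. Phloem markers still summed to 106 to 152 raw CPM in nuclei and 52.2 to 80.1 CPM in cytoplasm. The part of these cell types in the results was not tested, and in such bulk fractions fewer cells of a type and less RNA per cell cannot be told apart.

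Of 30901 genes, 15337 passed the filter on low counts. Of these, 6397 reached its level in all nuclear but not all cytoplasmic libraries and 408 the reverse, so that genes which passed through a single fraction did so mostly through nuclei. Between nuclei and cytoplasm 10931 of them (71.3%) differed at an adjusted p of 0.05, with 5988 (39%) higher in nuclei and 4943 (32.2%) higher in cytoplasm. Differences of at least 4-fold numbered 2557 (16.7%) towards the nucleus and 2209 (14.4%) towards the cytoplasm. For 9935 genes (64.8%) the 4 nuclear values did not overlap the 4 cytoplasmic values. The median log2 fold change of nucleus over cytoplasm was 0.26, with an interquartile range of -1.11 to 1.47. These values rest on scaling by trimmed means (TMM), which assumes that most genes are alike in both fractions. With raw library totals in its place 10358 genes were higher in nuclei and 2442 in cytoplasm, and the median moved to 1.55. Directions below are therefore relative to the typical gene, and levels are TMM-scaled CPM unless raw shares are named.

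A large share of cytoplasmic counts came from 2 loci. RR3 (AT2G41310, chromosome 2, 17221840 to 17224880, RefSeq TAIR10.1), a response regulator of cytokinin signalling, had 3078, 3471, 2943 and 3241 CPM in nuclei and 135573, 122118, 109734 and 125317 CPM in cytoplasm. Every cytoplasmic library lay far above every nuclear one, and the locus held 0.49% of raw nuclear counts and 7.81% of raw cytoplasmic counts. The non-coding locus AT1G05163 (chromosome 1, 5297847 to 5298571) had 1890, 1983, 1833 and 1859 CPM in nuclei and 79762, 60891, 54747 and 70142 CPM in cytoplasm, or 0.29% and 4.20% of raw counts. RR3 overlaps the non-coding locus AT2G09250 on the other strand, and AT1G05163 overlaps a gene on each strand. Strandedness of the counting was not given in the sources at hand, so reads of such overlapping loci cannot be assigned to one of them with certainty. Whether the counts at these loci come from the annotated transcripts was not tested, so those of RR3 are not to be read as the level of its messenger. Of the tested genes 907 overlap another gene on the same strand and 4452 one on the other strand.

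The non-coding locus inside RR3 went the same way. AT2G09250 had 8.70, 9.41, 8.66 and 7.15 CPM in nuclei and 291, 428, 308 and 246 CPM in cytoplasm, a log2 fold change of -5.21 ± 0.21 (SE). A single-exon non-coding locus that went the other way, though not the most extreme, was AT3G06325, with 500, 769, 431 and 516 CPM in nuclei and 15.3, 14.0, 5.22 and 1.73 CPM in cytoplasm, a log2 fold change of 6.01 ± 0.36, or 6.60 without cytoplasmic replicate 1. It overlaps a gene on each strand, and whether its counts come from the annotated transcript was not tested. The groups did not overlap at either locus. Their sequences are shown because these are loci annotated as non-coding, of similar length, that went opposite ways. They were read from RefSeq TAIR10.1, 5′ to 3′ on the annotated strand, the first at chr2:17224503-17224801 on the minus strand and whole, the second at chr3:14196558-14196857 on the plus strand and without its last bases. No motif was searched, so no letter is in capitals. GC content was 57.5% in AT2G09250 and 51.3% in AT3G06325. None of 250 words of 50 bases in AT2G09250 occurred anywhere else in the nuclear genome on either strand, whereas 201 of 251 words of AT3G06325 did, so that the counts of AT3G06325 may hold reads of other copies.
AT2G09250: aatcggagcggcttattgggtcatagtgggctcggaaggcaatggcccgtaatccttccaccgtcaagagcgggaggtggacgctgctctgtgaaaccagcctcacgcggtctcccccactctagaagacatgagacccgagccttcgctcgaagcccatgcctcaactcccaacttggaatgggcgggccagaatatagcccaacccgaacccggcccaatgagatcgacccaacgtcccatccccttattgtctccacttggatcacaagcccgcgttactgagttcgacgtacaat
AT3G06325: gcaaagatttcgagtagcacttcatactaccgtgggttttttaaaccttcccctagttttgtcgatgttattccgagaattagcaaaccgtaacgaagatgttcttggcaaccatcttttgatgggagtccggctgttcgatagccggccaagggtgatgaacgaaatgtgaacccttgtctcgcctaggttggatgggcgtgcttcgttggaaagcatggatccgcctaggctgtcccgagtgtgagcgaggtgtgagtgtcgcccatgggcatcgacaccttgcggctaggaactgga

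Tested genes were sorted by annotation into 60 functional classes, which hold 2929 of them. A total of 28 classes had a median above 0, towards the nucleus, and 32 a median below 0, towards the cytoplasm. Among the 28, nucleoporins (0.00), NAC factors (0.08), RNA helicases (0.18) and AP2/ERF factors (0.22) lay below the 0.26 of all tested genes. The lowest medians belonged to metallothioneins and photosystems, and the highest to receptor-like proteins and cysteine-rich receptor kinases.

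**Figure D1:**
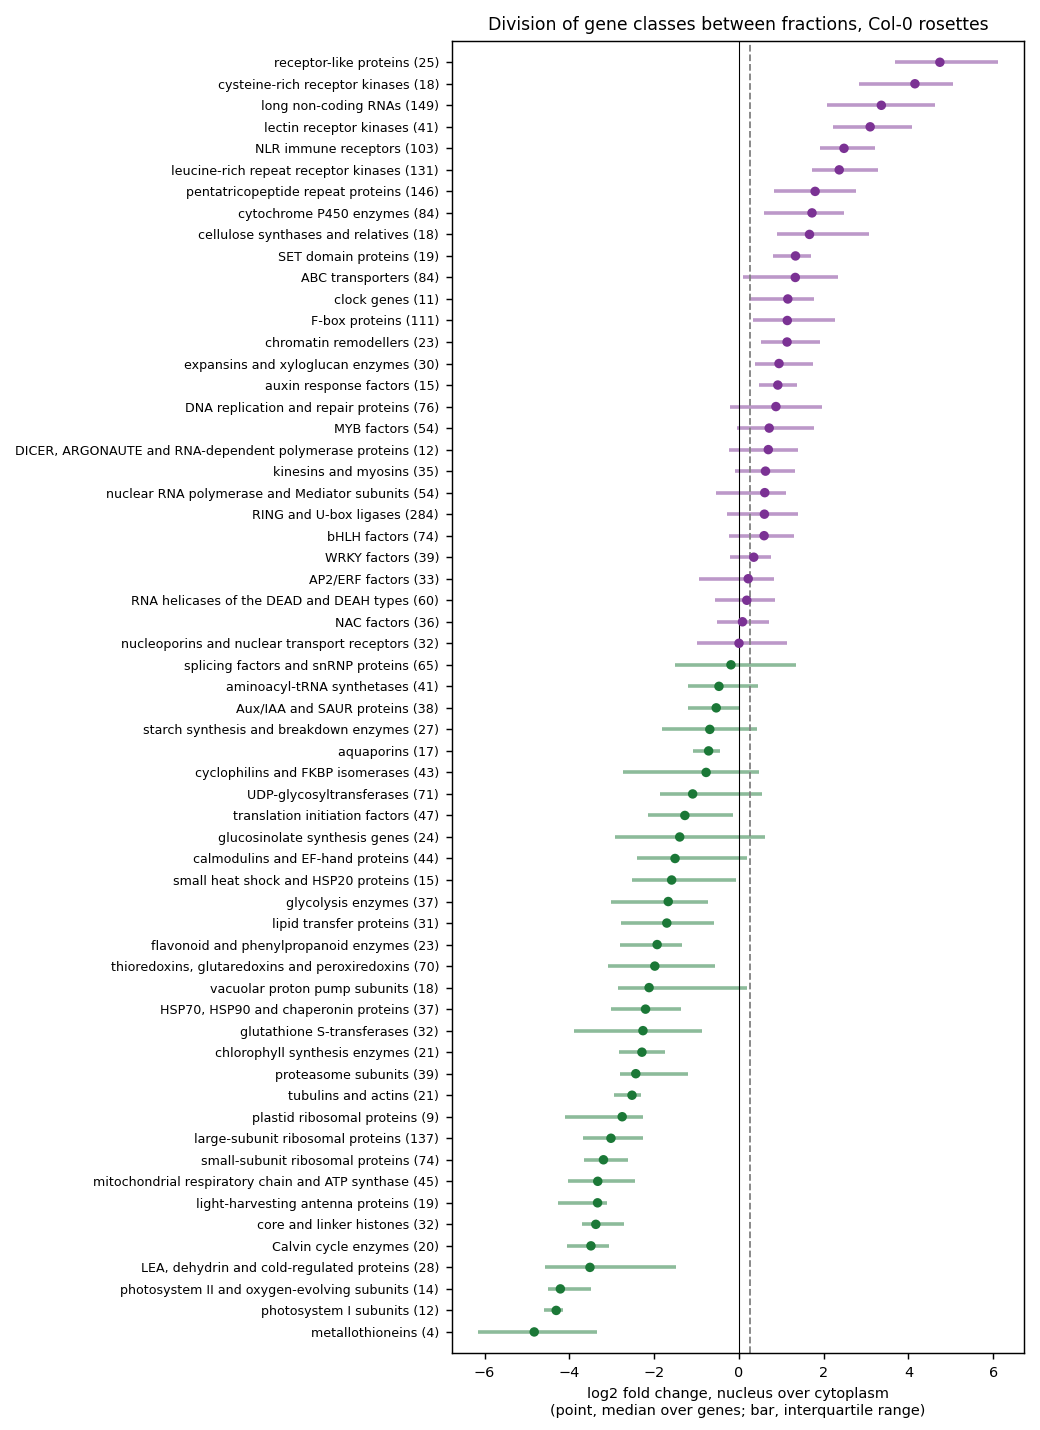
Median log2 fold change of nucleus over cytoplasm of each gene class (points), with the interquartile range of its tested genes as bars, the number tested in parentheses and the median of all tested genes as a dashed line at 0.26. Receptor and non-coding classes sit to the right, towards the nucleus, and photosynthesis, ribosome and histone classes to the left, towards the cytoplasm.

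Messengers of the photosynthetic apparatus lay towards the cytoplasm almost without exception. All 12 tested genes of photosystem I subunits and all 19 of light-harvesting antenna proteins were higher in cytoplasm, with median log2 fold changes of -4.31 and -3.34. PSAD-1, which encodes the ferredoxin-docking subunit D of photosystem I, had 295, 313, 286 and 337 CPM in nuclei and 13894, 11507, 11514 and 12599 CPM in cytoplasm. The libraries of each fraction were close to one another and far from the other fraction, with a log2 fold change of -5.33 ± 0.15 and an adjusted p of 2.59e-11. LHCB2.1, an antenna protein of photosystem II, had 530, 588, 430 and 591 CPM in nuclei against 16038, 14202, 13180 and 15646 CPM in cytoplasm (log2 fold change -4.79). LHCB and RBCS genes have near-identical copies between which the authors' counting could divide reads, so the values of a single copy are uncertain. Of 14 photosystem II genes 13 were higher in cytoplasm, among them PSBX (-4.85) and PSBW (-4.18). The exception, PSBP-2, a weakly expressed copy of an oxygen-evolving subunit, had 6.63 to 12.8 CPM in nuclei and 0 to 8.65 CPM in cytoplasm. Its groups overlapped, and its call towards the nucleus (1.46 ± 0.54, adjusted p = 0.0251) was lost without cytoplasmic replicate 3 (1.17, adjusted p = 0.0872) and was 2.29 without cytoplasmic replicate 4.

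Calvin cycle enzymes followed the same pattern, with 20 of 20 genes higher in cytoplasm and a median of -3.49. RBCS3B, a small subunit of the carbon-fixing enzyme Rubisco, had 353 to 538 CPM in nuclei and 15393 to 21034 CPM in cytoplasm (-5.31 ± 0.20). The neighbouring copy RBCS2B had 251 to 349 CPM in nuclei and 4715 to 5367 CPM in cytoplasm (-4.03 ± 0.16). PGK1, the plastid phosphoglycerate kinase, differed by -4.56. Chlorophyll synthesis was less uniform: 1 of 21 genes was higher in nuclei and 19 in cytoplasm, with a median of -2.29. GSA2 and HEMB1, which act early in tetrapyrrole synthesis, had log2 fold changes of -3.90 and -2.98. ALB1, a subunit of magnesium chelatase encoded in 15 exons, was the gene higher in nuclei, with 237, 233, 180 and 192 CPM there and 143, 131, 158 and 138 CPM in cytoplasm (0.56 ± 0.15, adjusted p = 0.0044). It overlaps another gene on the same strand. Plastid ribosomal proteins were higher in cytoplasm for 9 of 9 tested genes, with a median of -2.75.

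These classes also filled very different portions of the libraries. Antenna genes took 1.95%, 2.05%, 1.85% and 1.77% of raw counts in nuclei and 9.47%, 9.83%, 10.5% and 10.8% in cytoplasm. Photosystem I genes took 0.355% to 0.452% in nuclei and 3.77% to 4.14% in cytoplasm, and Calvin cycle genes 0.743% to 1.07% in nuclei and 4.63% to 5.96% in cytoplasm. No nuclear library reached the lowest cytoplasmic share in any of these classes. Over all classes 54 of 60 had shares that did not overlap between the fractions, 29 of them larger in nuclei and 25 larger in cytoplasm. The classes that did overlap were lipid transfer proteins, starch enzymes, UDP-glycosyltransferases, calmodulins, aquaporins and the Aux/IAA and SAUR proteins.

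**Figure D2:**
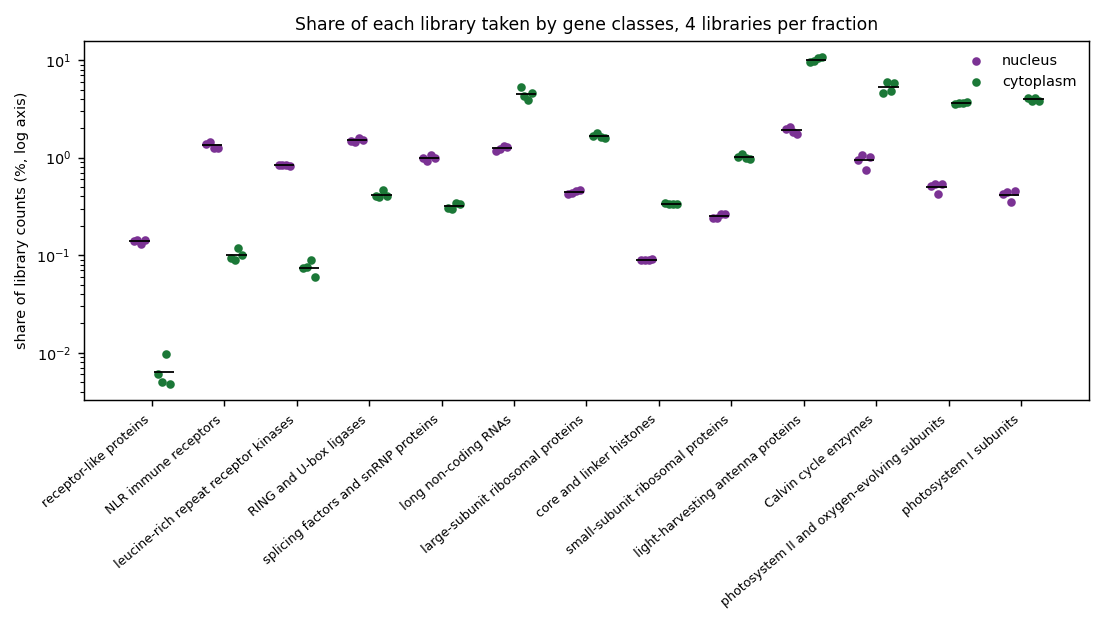
Share of all raw counts of each library (percent, log axis) taken by selected gene classes, with 4 nuclear and 4 cytoplasmic Col-0 libraries as points and their means as lines. Immune receptors, receptor kinases, splicing factors and RING ligases hold more of the nuclear libraries, and photosynthesis, ribosome and histone genes more of the cytoplasmic ones.

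Within carbohydrate metabolism the enzymes of one pathway did not all divide alike. Of 37 tested glycolysis genes 3 were higher in nuclei and 27 in cytoplasm, with a median of -1.67. The cytosolic enzymes GAPC1 (glyceraldehyde-3-phosphate dehydrogenase, -4.38), FBA8 (aldolase, -4.68) and TPI (triosephosphate isomerase, -4.33) were all higher in cytoplasm. GAPC1 had 106, 105, 107 and 113 CPM in nuclei and 2549, 2315, 1905 and 2212 CPM in cytoplasm. PFK1, a phosphofructokinase that acts upstream of them, was higher in nuclei, with 80.7 to 97.0 CPM there and 48.3 to 64.4 CPM in cytoplasm (0.62 ± 0.16, adjusted p = 0.00384). Starch enzymes included 7 of 27 genes higher in nuclei and 16 higher in cytoplasm, with a median of -0.69 that became 0.60 on raw totals. ADG1, the small subunit of ADP-glucose pyrophosphorylase, had 36.1, 39, 31.1 and 37.5 CPM in nuclei and 1236, 1113, 932 and 1207 CPM in cytoplasm (-4.96). SS4, a starch synthase that takes part in granule initiation, had 61.2, 58.8, 56.3 and 46.7 CPM in nuclei and 9.20, 0, 6.53 and 6.92 CPM in cytoplasm (3.13 ± 0.33). The groups did not overlap for either gene. GBSS1, the granule-bound amylose synthase, differed by -3.33. Of 45 tested genes of the mitochondrial respiratory chain and ATP synthase 1 was higher in nuclei and 40 in cytoplasm (median -3.33), with AT1G76200, annotated as a subunit of complex I, at 7.10 to 8.47 CPM in nuclei and 218 to 308 CPM in cytoplasm. The filter had been passed through cytoplasmic libraries alone by 9 of the 45 and through nuclear ones alone by 4.

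Ribosomal protein messengers were higher in cytoplasm with few exceptions. For large subunits 2 of 137 tested genes were higher in nuclei and 130 in cytoplasm, with a median of -3.02, and for small subunits 1 of 74 was higher in nuclei and 71 in cytoplasm, with a median of -3.20. Both classes include organellar-type members by annotation. Among those at a mean log2 CPM of 5 or more, all 81 large-subunit and all 51 small-subunit genes were higher in cytoplasm. AT1G01100, an acidic stalk protein, had 23.8, 28.4, 29.6 and 29.0 CPM in nuclei and 655, 632, 619 and 759 CPM in cytoplasm (-4.58 ± 0.16). Ribosomal proteins have near-identical copies, so single members are uncertain. Large-subunit genes took 0.421% to 0.468% of raw counts in nuclei and 1.58% to 1.79% in cytoplasm. Translation initiation factors were more mixed, with 7 of 47 higher in nuclei and 32 higher in cytoplasm, and a median of -1.28 that became 0.01 on raw totals. FBR12, the eIF5A protein, had 50.9 to 65.9 CPM in nuclei and 1354 to 1614 CPM in cytoplasm (-4.71), while EIF3C, a large eIF3 subunit, differed by -2.14. Of 41 tested aminoacyl-tRNA synthetases 8 were higher in nuclei and 19 in cytoplasm (median -0.47, but 0.82 on raw totals).

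Proteasome and chaperone genes were mostly higher in cytoplasm. Proteasome genes were higher in nuclei for 1 of 39 and in cytoplasm for 35, with a median of -2.43. The core particle subunits PAC1 and PBG1 had 14.6 to 20.1 and 11.5 to 12.4 CPM in nuclei and 199 to 266 and 130 to 187 CPM in cytoplasm. The proteasome gene higher in nuclei was AT1G53780, annotated as a 26S regulatory ATPase, with 273, 293, 333 and 314 CPM in nuclei and 13.8, 25.2, 26.1 and 22.5 CPM in cytoplasm (3.80 ± 0.20). Its groups did not overlap. For HSP70, HSP90 and chaperonin proteins, 3 of 37 were higher in nuclei and 31 in cytoplasm (median -2.2). The co-chaperonins CPN10 and CPN20 differed by -4.40 and -3.95, whereas AT4G16660, annotated as an HSP70 family protein, had 160 to 182 CPM in nuclei and 11.7 to 25.2 CPM in cytoplasm (3.23 ± 0.21). CPN10 overlaps a gene on the same strand. Small heat shock proteins were higher in nuclei for 3 of 15 and in cytoplasm for 9, with a median of -1.59 that became 0.58 for the 3 genes at a mean log2 CPM of 5 or more. Among the 15, 4 had passed the filter through cytoplasmic libraries alone and 3 through nuclear ones alone. Cyclophilins and FKBP isomerases, which rotate proline bonds, were higher in nuclei for 10 of 43 and in cytoplasm for 23 (median -0.77, but 0.52 on raw totals), and the cytosolic cyclophilin ROC5 differed by -5.39.

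Genes of metal binding, redox control and stress protection held large differences towards the cytoplasm. All 4 tested metallothioneins, small cysteine-rich proteins that bind metals, were higher in cytoplasm with a median of -4.83. MT2B had 21.2, 22.5, 27.3 and 34.1 CPM in nuclei and 2384, 2276, 2378 and 2756 CPM in cytoplasm, a 92.9-fold difference. The fractions were separated by far more than the spread within either. The class of LEA, dehydrin and cold-regulated proteins had 3 of 28 genes higher in nuclei and 22 in cytoplasm (median -3.52). The filter had been passed through cytoplasmic libraries alone by 8 of the 28 and through nuclear ones alone by 3. KIN1 had 0.765 to 2.45 CPM in nuclei and 78.3 to 192 CPM in cytoplasm, and COR47, a dehydrin, had 96.9 to 131 CPM in nuclei and 1916 to 2278 CPM in cytoplasm. KIN1 belongs to a pair of near-identical neighbours, so its value is uncertain. COR15A, a chloroplast protein of cold tolerance, had 0.510 to 2.31 CPM in nuclei and 78.3 to 242 CPM in cytoplasm (-6.18 ± 0.41).

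Thioredoxins, peroxiredoxins and related redox proteins were higher in nuclei for 6 of 70 genes and in cytoplasm for 50 (median -1.99). TRX3, a cytosolic thioredoxin h, had 25.1, 22.5, 21.2 and 27.5 CPM in nuclei and 910, 800, 849 and 1057 CPM in cytoplasm (-5.23), and PRXIIF, the mitochondrial peroxiredoxin, differed by -4.83. Glutathione S-transferases were higher in nuclei for 3 of 32 and in cytoplasm for 25 (median -2.26), and 5 of the 32 had passed the filter through cytoplasmic libraries alone and 4 through nuclear ones alone. GSTU19 differed by -4.54, while GSTT2, which lies beside related copies, had 29.1 to 46.9 CPM in nuclei and 0 to 10.4 CPM in cytoplasm (2.42 ± 0.38).

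In specialised metabolism the enzymes of one pathway also lay on different sides, and cytochromes P450, oxygenases anchored in the endoplasmic reticulum, leaned towards the nucleus. Of 23 flavonoid and phenylpropanoid genes 1 was higher in nuclei and 18 in cytoplasm (median -1.93). TT4, chalcone synthase, had 31.2, 33.5, 18.3 and 50.4 CPM in nuclei and 693, 841, 399 and 901 CPM in cytoplasm (-4.39), and the methyltransferase OMT1 differed by -3.59. TT7, the flavonoid hydroxylase and a P450, was the one higher in nuclei, at 6.21 to 10.5 CPM there and 0 to 4.6 CPM in cytoplasm (2.31 ± 0.64, adjusted p = 0.0051, and 3.85 without cytoplasmic replicate 1). In glucosinolate synthesis 5 of 24 genes were higher in nuclei and 13 in cytoplasm (median -1.40). The P450 CYP83B1 had 62.9 to 79.9 CPM in nuclei and 15.6 to 50.3 CPM in cytoplasm (1.18 ± 0.25). GSTU20 and the sulfotransferase SOT16 of the same pathway differed by -5.62 and -3.39. Over the whole P450 family 58 of 84 tested genes were higher in nuclei and 3 in cytoplasm (median 1.72), CYP72A13 among them with 162 to 181 CPM in nuclei and 13.8 to 39.2 CPM in cytoplasm. Of the 84, 65 passed the filter through nuclear libraries alone, and among the 10 at a mean log2 CPM of 5 or more the counts were 7 and 1. UDP-glycosyltransferases were higher in nuclei for 16 of 71 and in cytoplasm for 40 (median -1.09, but 0.20 on raw totals).

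Structural and transport proteins also went different ways. All 21 tested tubulin and actin genes were higher in cytoplasm (median -2.52), with ACT7, the main actin of young tissue, at 58.0 to 67.1 CPM in nuclei and 775 to 936 CPM in cytoplasm and TUB3 at -3.41. Motor proteins that run on these filaments lay on the other side, with 18 of 35 kinesins and myosins higher in nuclei and 4 in cytoplasm (median 0.63). Their transcripts are mostly long: 32 of the 35 fell in the highest quartile of transcript length. There their median was 0.64, below the 1.20 of all genes in that quartile. The filter had been passed through nuclear libraries alone by 9 of the 35. MYA2, a class XI myosin of 39 exons, had 209, 224, 246 and 222 CPM in nuclei and 79.8, 64.3, 80.9 and 84.7 CPM in cytoplasm (1.53 ± 0.15). Its groups did not overlap, and it overlaps another gene on the same strand. Vacuolar proton pumps were higher in nuclei for 3 of 18 and in cytoplasm for 12 (median -2.12). TUF, subunit E of the vacuolar ATPase, differed by -2.86, and VP2, a single-chain proton pyrophosphatase, by 1.42. No aquaporin was higher in nuclei and 11 of 17 were higher in cytoplasm, with a median of -0.72 that became 0.58 on raw totals; PIP1B had 189 to 233 CPM in nuclei and 652 to 874 CPM in cytoplasm.

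Among ABC transporters 52 of 84 were higher in nuclei and 14 in cytoplasm (median 1.33), and 35 of the 84 had passed the filter through nuclear libraries alone. The full-length transporters ABCC8 and ABCB19, the second of which exports auxin, had 186 to 261 and 210 to 259 CPM in nuclei and 16.8 to 26.1 and 31.1 to 45.7 CPM in cytoplasm. NAP7, a soluble member that takes part in plastid iron-sulfur cluster assembly, had 12.7 to 15.1 CPM in nuclei and 121 to 149 CPM in cytoplasm (-3.27 ± 0.16). Cellulose synthases and related proteins were higher in nuclei for 16 of 18 genes and in cytoplasm for none (median 1.66). Of these, 10 had passed the filter through nuclear libraries alone, and the 8 genes at a mean log2 CPM of 5 or more had a median of 0.93. CESA2 had 181, 180, 170 and 168 CPM in nuclei and 64.4, 64.3, 56.1 and 41.5 CPM in cytoplasm, and CSLA03 differed by 3.93. Expansins and xyloglucan enzymes, which loosen the wall, were higher in nuclei for 17 of 30 and in cytoplasm for 0 (median 0.95), and 15 of the 30 belong to the lowest quartile of transcript length, whose median over all genes was -1.25. Of the 30, 19 had passed the filter through nuclear libraries alone. XTH9 had 45.1 to 53.5 CPM in nuclei and 12.3 to 25.2 CPM in cytoplasm.

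Messengers for proteins that work in the nucleus were not on one side. Histone genes were higher in cytoplasm for 31 of 32 tested and higher in nuclei for 0, with a median of -3.38. The filter had been passed through cytoplasmic libraries alone by 5 of the 32. HTB4 and HTB11, which encode histone H2B, had 26.4 to 36.4 and 21.3 to 27.6 CPM in nuclei and 535 to 661 and 332 to 352 CPM in cytoplasm. Copies of a histone differ little in sequence, so a single gene's value is uncertain. SET-domain proteins, most of which methylate histones, were higher in nuclei for 13 of 19 and in cytoplasm for 2 (median 1.33). ATX2, a trithorax-like member, had 165, 171, 194 and 174 CPM in nuclei and 19.9, 22.4, 10.4 and 20.8 CPM in cytoplasm (3.31 ± 0.21), and SDG25 differed by 2.63. Of 23 chromatin remodellers 16 were higher in nuclei and 1 in cytoplasm (median 1.14). CHR5 had 236 to 260 CPM in nuclei and 55.3 to 89 CPM in cytoplasm. CHR1, the remodeller also called DDM1 that maintains DNA methylation, was the one higher in cytoplasm, with 3.31 to 11.5 CPM in nuclei and 13.1 to 25.9 CPM in cytoplasm (-1.21 ± 0.39, adjusted p = 0.0138), a direction that turned to 0.08 on raw totals and lost its call without cytoplasmic replicate 1 (-1.09) or 4 (-0.93). DNA replication and repair genes were higher in nuclei for 40 of 76 and in cytoplasm for 13 (median 0.87). REV1, a translesion polymerase, had 209 to 224 CPM in nuclei and 7.67 to 14.0 CPM in cytoplasm (4.40 ± 0.20), and RAD50 differed by 2.2. The filter had been passed through nuclear libraries alone by 42 of these 76 genes, 9 of the 19 SET-domain genes and 9 of the 23 remodellers.

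RNA polymerase and Mediator subunits were higher in nuclei for 23 of 54 genes and in cytoplasm for 11 (median 0.61), a nuclear share of 42.6% beside 39% of all tested genes, and 23 of the 54 had passed the filter through nuclear libraries alone. Differences of at least 4-fold were 4 towards the nucleus and 9 towards the cytoplasm. Among the 9 was the small polymerase subunit NRPB10, with 2.05, 1.60, 1.53 and 2.45 CPM in nuclei and 44.5, 39.1, 48.3 and 64.0 CPM in cytoplasm (-4.66 ± 0.27). Splicing proteins were spread widely, with 23 of 65 higher in nuclei and 31 in cytoplasm and a median of -0.19 that became 1.10 on raw totals. Named members on opposite sides were AT4G36980, annotated as a serine/arginine-rich protein, with 650 to 764 CPM in nuclei and 32.9 to 39.9 CPM in cytoplasm, and smB, a core snRNP protein, with 8.70 to 12.6 CPM in nuclei and 134 to 192 CPM in cytoplasm. By raw counts the class took 0.923% to 1.08% of nuclear and 0.300% to 0.345% of cytoplasmic libraries. Nucleoporins and nuclear transport receptors were even, with 10 of 32 higher in nuclei and 11 in cytoplasm and a median of 0.00; IMPA-2, an importin alpha, differed by -2.15. DICER, ARGONAUTE and RNA-dependent polymerase genes were higher in nuclei for 5 of 12 and in cytoplasm for 1 (median 0.69, but -0.17 among members that overlap no other gene). This nuclear share of 41.7% was near the 39% of all tested genes, and 8 of the 12 had passed the filter through nuclear libraries alone. DCL1, which makes microRNAs, had 338, 304, 385 and 335 CPM in nuclei and 30.7, 44.7, 44.4 and 60.5 CPM in cytoplasm. DCL2 and DCL4, which make small interfering RNAs, differed by 3.20 and 1.32. DCL1 and DCL2 each overlap a gene on the same strand. AGO4 of RNA-directed DNA methylation had 53.3 to 58.5 CPM in nuclei and 54.8 to 87.4 CPM in cytoplasm, and its call (-0.44 ± 0.17, adjusted p = 0.0311) turned to 0.85 on raw totals. It was also lost in 6 of 8 fits that left out a library, namely nuclear replicates 1, 2 and 4 and cytoplasmic replicates 1, 2 and 4, with values of -0.46 to -0.27, and with median-of-ratios scaling (-0.32), no filter (-0.30), a filter of 1 CPM (-0.34) and DESeq2 (-0.31).

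Immune receptor messengers lay towards the nucleus. Of 103 tested NLR genes, which encode intracellular nucleotide-binding receptors of pathogen effectors, 98 were higher in nuclei and 0 in cytoplasm, with a median of 2.48. AT5G40910, of the TIR type (chromosome 5, 16394462 to 16400489), had 342, 339, 296 and 266 CPM in nuclei and 6.14, 11.2, 9.14 and 10.4 CPM in cytoplasm, a 34.5-fold difference (5.11 ± 0.22, adjusted p = 9.69e-11). Every nuclear value stood far above every cytoplasmic one. AT1G58602 had 485 to 558 CPM in nuclei and 39.1 to 67.9 CPM in cytoplasm, and AT1G12290, of the coiled-coil type, 49.3 to 60.2 CPM in nuclei and 0 to 1.73 CPM in cytoplasm (5.93, or 6.56 without cytoplasmic replicate 4). Both overlap genes on the same strand, and NLR genes lie in clusters of similar copies, so single values are uncertain. NLR genes together took 1.37%, 1.46%, 1.25% and 1.26% of raw counts in nuclei and 0.093%, 0.090%, 0.119% and 0.101% in cytoplasm, a 13.3-fold difference. Of the 103, 74 had passed the filter through nuclear libraries alone, which admits genes that are higher there. Among the 28 at a mean log2 CPM of 5 or more, a bound set after the data were seen, all 28 were higher in nuclei with a median of 2.29, against 30.4% of the 5109 genes of that level and a median of -0.48. That mean covers both fractions, so a gene can still reach the bound through nuclear counts, and the bound does not remove this selection.

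**Figure D3:**
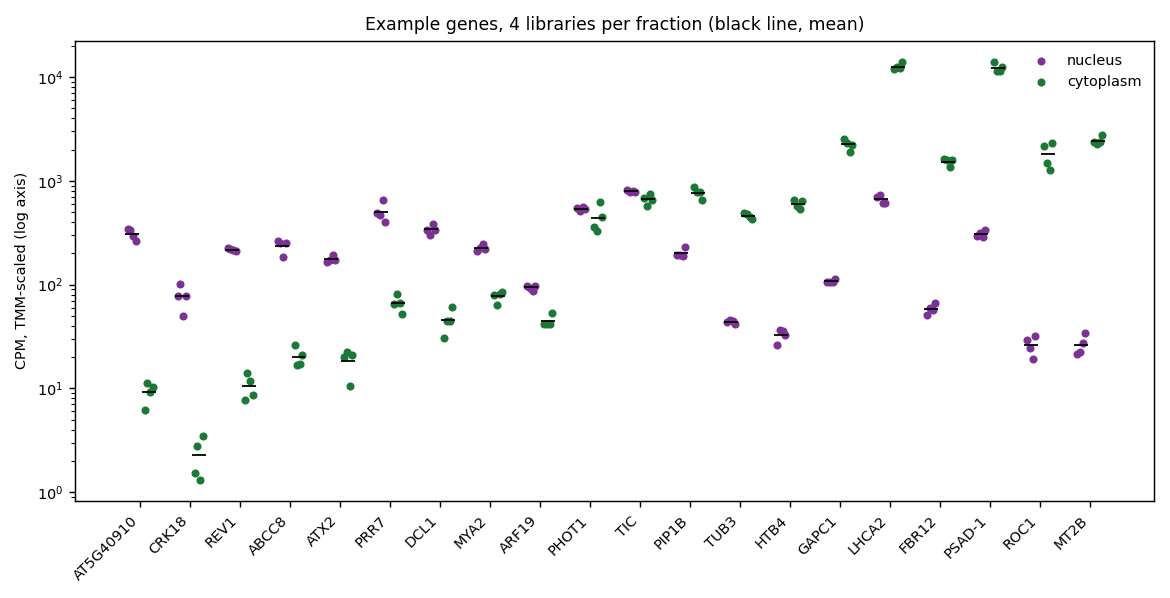
TMM-scaled CPM (log axis) of selected genes in each Col-0 library, with nuclear points left of cytoplasmic points and a line at each mean. PSAD-1, MT2B and HTB4 lie higher in cytoplasm, and AT5G40910, ATX2 and DCL1 higher in nuclei, with no overlap between the fractions.

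Receptors at the cell surface were divided in the same direction. Leucine-rich repeat receptor kinases were higher in nuclei for 119 of 131 and in cytoplasm for 0 (median 2.37), with AT1G07650 at 107 to 159 CPM in nuclei and 2.61 to 10.7 CPM in cytoplasm, and AT5G49760 at 101 to 123 CPM in nuclei and 14.0 to 17 CPM in cytoplasm. As a class they took 0.820% to 0.851% of raw nuclear counts and 0.060% to 0.089% of raw cytoplasmic counts. Lectin receptor kinases were higher in nuclei for 39 of 41 (median 3.10) and cysteine-rich receptor kinases for 17 of 18 (median 4.15), with none higher in cytoplasm in either class. CRK18 had 50.2 to 102 CPM in nuclei and 1.31 to 3.46 CPM in cytoplasm, and CRK29, which overlaps other genes on the same strand, differed by 4.31. The S-locus lectin kinase AT4G27300 had 109 to 130 CPM in nuclei and 7.67 to 16.8 CPM in cytoplasm.

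Receptor-like proteins, which carry extracellular repeats but no kinase, were higher in nuclei for 24 of 25 tested genes and in cytoplasm for 1, with a median of 4.74. RLP19 had 273, 285, 242 and 231 CPM in nuclei and 6.14, 11.2, 9.14 and 0 CPM in cytoplasm (5.33 ± 0.33), and RLP13 differed by 5.29, or by 5.88 without cytoplasmic replicate 1. RLP51 was the exception, at 16.5 to 21.9 CPM in nuclei and 25.2 to 69.2 CPM in cytoplasm (-1.42 ± 0.26); it has a single exon. Its call was lost on raw totals (-0.13). The portion that passed the filter through nuclear libraries alone was 105 of 131 leucine-rich repeat kinases, 39 of 41 lectin kinases, 15 of 18 cysteine-rich kinases and 24 of 25 receptor-like proteins. At a mean log2 CPM of 5 or more, 19 of 19 leucine-rich repeat kinases were higher in nuclei (median 1.98), but only 1, 2 and 1 genes were left in the other classes. Here too the bound can be reached through nuclear counts.

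Transcription factor families were mixed. MYB factors were higher in nuclei for 24 of 54 and in cytoplasm for 5 (median 0.71, but -0.01 at a mean log2 CPM of 5 or more). For bHLH factors the numbers were 28 and 12 of 74 (median 0.59, but 0.18 at that level). Shares called higher in nuclei were 44.4% (MYB), 37.8% (bHLH), 17.9% (WRKY), 22.2% (NAC) and 30.3% (AP2/ERF), beside 39% of all tested genes. Of these families, 34 of 54 MYB and 31 of 74 bHLH genes had passed the filter through nuclear libraries alone. For WRKY, NAC and AP2/ERF factors this held for 17 of 39, 12 of 36 and 17 of 33 genes. MYB33 and MYB65, related gibberellin-response factors under control of a microRNA, had 53.0 to 65.5 and 24.1 to 27.6 CPM in nuclei and 5.59 to 10.4 and 0 to 2.61 CPM in cytoplasm. The log2 fold change of MYB65 was 4.29, and 5.34 without cytoplasmic replicate 3. The bHLH factor ILR3 of iron homeostasis differed by -2.48. WRKY factors were higher in nuclei for 7 of 39 and in cytoplasm for 5 (median 0.35). WRKY19, whose protein also carries immune receptor and kinase domains, had 172 to 191 CPM in nuclei and 8.39 to 20.8 CPM in cytoplasm (3.79 ± 0.22). NAC factors numbered 8 higher in nuclei and 9 in cytoplasm of 36 (median 0.08, but -0.34 at a mean log2 CPM of 5 or more), and AP2/ERF factors 10 and 10 of 33 (median 0.22, but -0.30 with a filter of 1 CPM). ERF6, a stress-induced factor of a single exon, had 5.63, 8.34, 4.59 and 2.64 CPM in nuclei and 78.2, 67.1, 40.5 and 22.5 CPM in cytoplasm (-3.25 ± 0.39). Its lowest cytoplasmic value still exceeded its highest nuclear one.

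In auxin signalling the response factors and the class of Aux/IAA repressors and SAUR proteins had medians of opposite sign, except on raw totals. Of 15 auxin response factors 12 were higher in nuclei and 1 in cytoplasm (median 0.92). Of 38 tested Aux/IAA and SAUR genes 1 was higher in nuclei and 17 in cytoplasm (median -0.54, but 0.75 on raw totals). In the highest quartile of transcript length 13 response factors had a median of 0.92, below the 1.20 of all genes there. In the lowest quartile 28 Aux/IAA and SAUR genes had a median of -0.34, above the -1.25 of all genes there. ARF19 had 87.7 to 97.9 CPM in nuclei and 41.4 to 53.6 CPM in cytoplasm, and overlaps a gene on the same strand. AXR3, the repressor IAA17, had 10.2 to 13.0 CPM in nuclei and 114 to 158 CPM in cytoplasm (-3.44 ± 0.18). MP, the response factor of embryo and vein patterning, was the one response factor higher in cytoplasm, with 15.9 to 19.4 CPM in nuclei and 16.8 to 36.6 CPM in cytoplasm, groups that overlapped, and a log2 fold change of -0.73 that became 0.55 on raw totals. The call was lost without cytoplasmic replicate 3 (-0.47) or 4 (-0.59). Of 11 tested clock genes 6 (54.5%, beside 39% of all tested genes) were higher in nuclei and 0 in cytoplasm (median 1.15). Those at a mean log2 CPM of 5 or more, 7 genes, had a median of 0.26, with 3 higher in nuclei. The 7 clock genes in the highest quartile of transcript length had a median of 1.15, close to the 1.20 of all genes there. The filter had been passed through nuclear libraries alone by 3 of the 11 clock genes and 4 of the 15 response factors. Among Aux/IAA and SAUR genes this held for 13 of 38. PRR7 had 493, 470, 654 and 398 CPM in nuclei and 64.4, 81.1, 66.6 and 51.9 CPM in cytoplasm, CCA1 differed by 1.54 and ELF3 by 1.84. The labels give no hour of harvest, on which clock transcripts depend.

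Other large families differed in how far they lay towards the nucleus. Pentatricopeptide repeat proteins, which bind organellar RNA, were higher in nuclei for 105 of 146 and in cytoplasm for 15 (median 1.80). AT1G19720 had 504, 523, 519 and 510 CPM in nuclei and 61.4, 103, 60 and 95.1 CPM in cytoplasm, while PPR336 had 8.34 to 11 CPM in nuclei and 43.1 to 62.9 CPM in cytoplasm. F-box proteins, the substrate receptors of ubiquitin ligases, were higher in nuclei for 68 of 111 and in cytoplasm for 10 (median 1.14), and RING and U-box ligases for 123 and 50 of 284 (median 0.60). The nuclear share of 43.3% among RING and U-box ligases was near the 39% of all tested genes. AT5G25560, annotated as a RING zinc finger protein, had 514, 508, 567 and 477 CPM in nuclei and 9.20, 5.59, 9.14 and 5.19 CPM in cytoplasm, a 67.6-fold difference, and it overlaps a gene on the same strand. RBX1, the small RING subunit of cullin ligases, had 6.39 to 9.43 CPM in nuclei and 46.7 to 61.5 CPM in cytoplasm. RING ligases took 1.45% to 1.58% of raw counts in nuclei and 0.397% to 0.467% in cytoplasm. Of the tested genes, 115 of 146 pentatricopeptide repeat, 83 of 111 F-box and 142 of 284 RING genes had passed through nuclear libraries alone.

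Of 3480 annotated long non-coding RNAs 149 were tested, 128 of them higher in nuclei and 8 in cytoplasm, with a median of 3.36. Only 6 of the 149 overlap no other gene, 4 of which were higher in nuclei, while 102 overlap a gene on the other strand and 41 one on the same strand, so their counts may include reads of those genes. A total of 136 passed the filter through nuclear libraries alone, and of the 12 at a mean log2 CPM of 5 or more 7 were higher in nuclei and 4 in cytoplasm, with a median of 0.79. AT3G59068 had 120, 206, 133 and 163 CPM in nuclei and no count in cytoplasm, which makes it at least 126-fold higher in nuclei when 3 counts over the cytoplasmic group are taken as the floor. Floors cover counting error only. By raw counts the class took 1.18% to 1.31% in nuclei and 3.91% to 5.28% in cytoplasm. Without the 2 loci of largest cytoplasmic share those means were 0.967% in nuclei and 0.364% in cytoplasm, the reverse order.

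One of the extreme protein-coding genes was AT4G00040, annotated as a chalcone synthase family protein, with 103, 117, 120 and 114 CPM in nuclei and 0, 0, 0 and 1.73 CPM in cytoplasm. Cytoplasmic replicate 4 alone held a count, and the log2 fold change of 7.91 became 11.39 without that library. AT2G35750, an uncharacterised protein, had 2593, 3136, 2563 and 2540 CPM in nuclei and 78.2, 64.3, 102 and 72.6 CPM in cytoplasm, 0.42% and 0.01% of raw counts. It overlaps other genes on the same strand. In all, 177 tested genes had no cytoplasmic count at all, and 0 had no nuclear count.

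Some strongly expressed genes were close to even with TMM scaling. They were picked because their log2 fold change lay within 0.2 of the median of all tested genes. TIC, a clock-associated protein, had 813, 785, 804 and 780 CPM in nuclei and 692, 568, 755 and 655 CPM in cytoplasm (0.25 ± 0.13, adjusted p = 0.103). The blue-light receptor PHOT1 had 511 to 564 CPM in nuclei and 330 to 623 CPM in cytoplasm (0.29 ± 0.18, adjusted p = 0.169). The test called neither, which does not show that they were equal. Without cytoplasmic replicate 3 both were called, TIC at 0.41 and PHOT1 at 0.60, and with the replicate block PHOT1 was called at 0.33 (adjusted p = 0.0243). On raw totals both were called as well, TIC at 1.54 and PHOT1 at 1.57. PHOT1 was also called with median-of-ratios scaling (0.42), with no filter (0.43) and in the 18-library fit (0.31). GLT1, glutamate synthase, was slightly higher in nuclei, at 1022 to 1153 CPM there and 731 to 872 CPM in cytoplasm (0.43 ± 0.13, adjusted p = 0.00752), and overlaps a gene on the same strand. In 2 other genes the libraries of a fraction spread widely. DIN10, a raffinose synthase family gene induced in darkness, had 1206, 998, 2547 and 1580 CPM in nuclei and 535, 408, 2552 and 1971 CPM in cytoplasm. P5CS1, of proline synthesis, had 653, 723, 108 and 288 CPM in nuclei and 477, 478, 166 and 543 CPM in cytoplasm. Replicate 3 was highest in both fractions for DIN10 and lowest in both for P5CS1. Neither gene was called with TMM scaling, while on raw totals both were, DIN10 at 1.49 and P5CS1 at 1.39. With the replicate number as a block DIN10 was higher in nuclei (0.50, adjusted p = 0.000473) and P5CS1 was not called (-0.11).

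The length of the mature transcript went along with the division. Among protein-coding genes with transcripts from 500 to under 1000 bases 8.38% were higher in nuclei and 73% in cytoplasm, with a median of -2.08 over 1300 genes. From 1500 to under 2000 bases the shares were 34.3% and 32.0%, and at 4000 bases and over 78.7% and 5.92%, with a median of 1.38 over 743 genes. Across 15187 protein-coding genes Spearman's rho of the log2 fold change was 0.466 with transcript length, 0.425 with coding length, 0.235 with exon number, 0.165 with the length of the 5′ untranslated region, 0.012 with that of the 3′ region and -0.12 with GC content. These are descriptions across genes of the same 8 libraries, and genes are not independent replicates. From 1000 to under 1500 bases the median was -1.09 for genes of 1 exon and 0.20 for those of 11 exons or more, and from 2000 to under 3000 bases it was 0.60 and 0.81. GC content separated genes of one length further: from 2000 to under 3000 bases the median was 1.37 below 38% GC and -0.58 at 46% GC and above, and from 1000 to under 1500 bases -0.18 and -1.71. The sources at hand do not say whether intronic reads were counted.

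**Figure D4:**
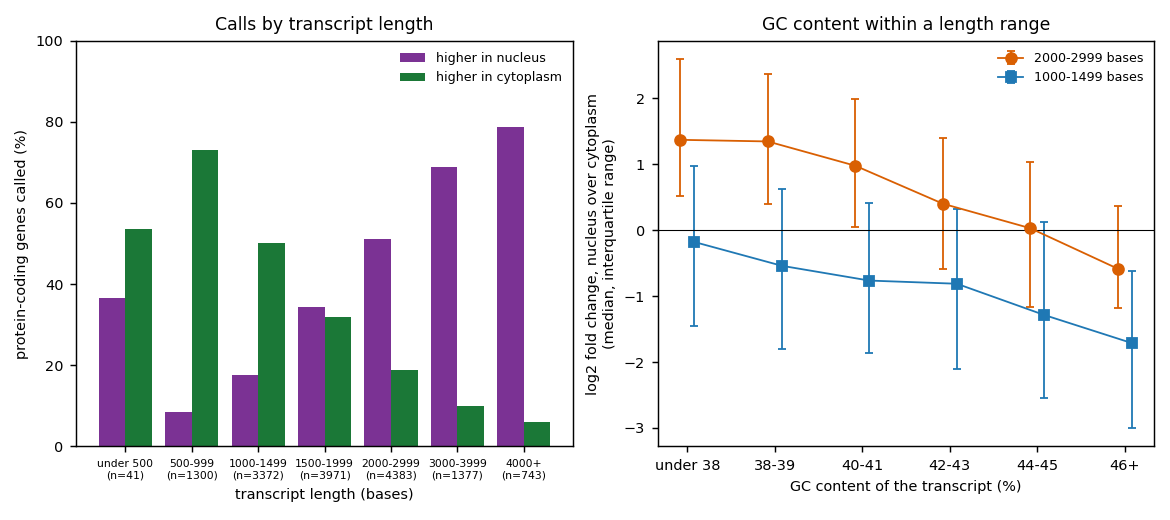
Left, share of protein-coding genes (percent) higher in nuclei and in cytoplasm by transcript length (bases); right, median log2 fold change of nucleus over cytoplasm, with interquartile range, by GC content (percent) within 2 length ranges. The nuclear share climbs from 8.38% at 500 to under 1000 bases to 78.7% at 4000 bases and over, and the median falls with GC content in both length ranges.

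Among genes of like length some classes lay apart from the median of all genes and others did not. In the lowest quartile of transcript length, below 1384 bases, the median of all genes was -1.25, against -4.31 for photosystem I, -3.37 for histones and -3.12 for large ribosomal subunits. In the highest quartile, from 2475 bases, it was 1.20, against 2.49 for 98 NLR genes, 2.40 for 117 leucine-rich repeat kinases, 5.09 for 20 receptor-like proteins and 2.13 for 57 ABC transporters, classes in which many members had passed the filter through nuclear libraries alone. Close to 1.20 were the medians of 1.31 for 14 cellulose synthases and relatives, 1.10 for 15 bHLH factors, 1.08 for 22 chromatin remodellers and 1.07 for 72 RING and U-box ligases. Other classes of long transcripts had lower medians: -2.22 for 16 HSP70, HSP90 and chaperonin genes, -0.65 for 14 aminoacyl-tRNA synthetases, -0.37 for 16 starch enzymes and 0.20 for 23 nucleoporins and transport receptors. So did 32 kinesins and myosins (0.64) and 13 auxin response factors (0.92). In the lowest quartile 28 Aux/IAA and SAUR genes had a median of -0.34, above the -1.25 of all genes there. Long non-coding RNAs had a median of 3.36 in the lowest and 3.37 in the highest length quartile.

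**Figure D5:**
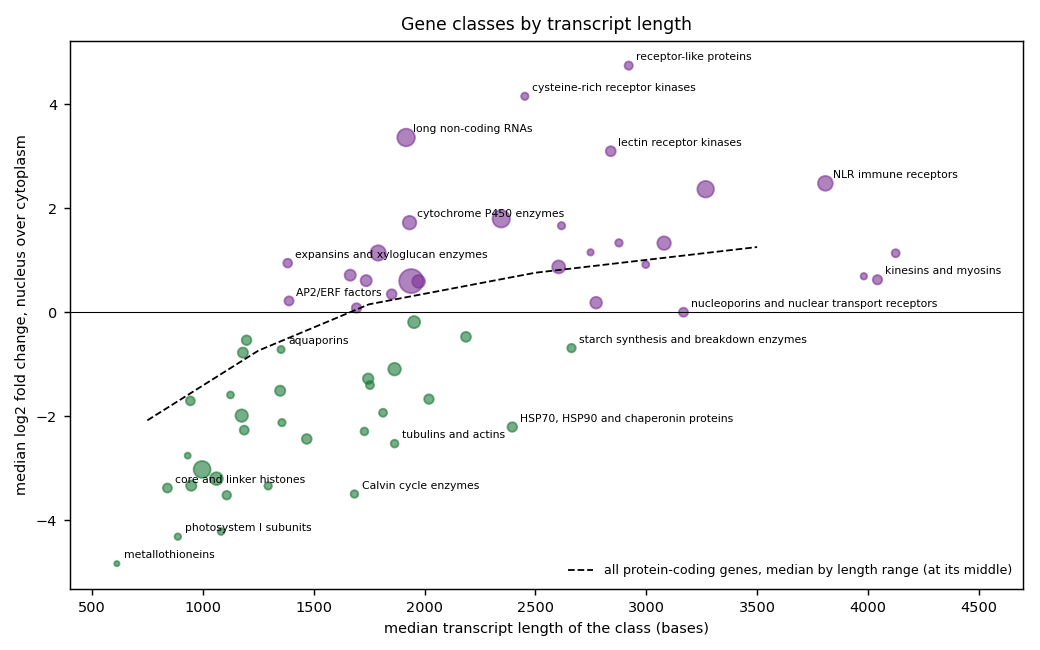
Median log2 fold change of nucleus over cytoplasm of each gene class against the median transcript length of the class (bases), with larger points for classes with more tested genes and a dashed line for all protein-coding genes; purple marks medians above 0 and green those below. Photosystem I and histone classes lie below, and NLR genes and receptor-like proteins above, the level of the line at its nearest length.

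The fractions of mos11 divided most genes in a way that the test could not tell from Col-0. Of 16207 genes fitted over all 18 libraries, 256 (1.58%) differed between genotypes in the ratio of nucleus to cytoplasm, with 107 ratios higher and 149 lower in mos11 than in Col-0. With median-of-ratios scaling 142 were higher and 109 lower in mos11.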

How the data were processed

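The authors deposited a table of raw counts, 30901 genes by 18 libraries, from reads with UMIs per the labels. Whether a column sums both flow cells was not given in the sources at hand. Software listed in the submitters' processing notes is STAR (2.7.8a), featureCounts, UMI-tools and Picard, and the build is TAIR10. Columns were matched to groups by name. The 8 Col-0 libraries were fitted alone with the quasi-likelihood test of edgeR 4.0.16 in R 4.3.3, with TMM scaling, the filterByExpr filter (about 5.39 CPM in enough libraries) and Benjamini-Hochberg adjustment over 15337 genes at 0.05. Log2 fold changes are nucleus over cytoplasm, and their SE is the fold change over the square root of F. Alternatives were median-of-ratios and raw-total scaling, other filters, DESeq2 1.42.0, a 1.5-fold test, all 18 libraries, a replicate block, genes without overlap and each library left out.

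The difference between genotypes was tested as an interaction over all 18 libraries. Classes were built from RefSeq TAIR10.1 annotation, and genes were named from each class by size of difference and p. Classes, genes and tests were chosen with earlier results of these data known, so class counts carry no test. Gene names, lengths and positions come from TAIR10.1. Depth was 556016 to 3719008 counts per library. The procedure was tested on simulated data before use. Few genes changed in those data, unlike here, so the choice of scaling was not tested by them. The variance between replicate counts was 2.02 to 12.4 times what sampling alone would give, and none was treated as a copy of another. Residuals of same-numbered libraries of the 2 fractions correlated at 0.107 to 0.363, and those of differently numbered ones at -0.294 to 0.180. The numbers may therefore pair the libraries, but the ranges overlap. The main fit did not use this pairing, and the replicate block was run as an alternative. Organelle genes, small RNA genes and the added control RNA were not used here.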

Additional observations from a re-analysis of the deposited data

Results flagged for a closer look

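In 14 of 260 groups of 4 libraries (5.38%, where chance alone gives about 1 in 20) a single library stood apart from the other three by Dixon's criterion. Replicate 3 did so in nuclei for COR15A (0.510 CPM), CYP83B1 (62.9 CPM), ABCC8 (186 CPM), ELF3 (80.3 CPM) and MYB33 (65.5 CPM), and in cytoplasm for FBA8 (1478 CPM), FBR12 (1354 CPM) and the share of RING and U-box ligases (0.467%). In nuclei replicate 4 stood apart for PIP1B (233 CPM) and replicate 2 for AT2G35750 (3136 CPM). In cytoplasm it was replicate 2 for DCL4 (5.59 CPM), replicate 4 for ARF19 (53.6 CPM) and AT4G00040 (1.73 CPM), and replicate 1 for AXR3 (158 CPM).

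For 18 of the 117 genes named here (15.4%) the ratio of nucleus to cytoplasm differed between mos11 and Col-0 by edgeR's interaction test, at an adjusted p of 0.05. Over all 16207 genes the share was 1.58%. The named genes were chosen in part for small p-values in Col-0, so the 2 shares cannot be compared directly. Values are log2 ratios of mos11 over Col-0 with TMM scaling, in 5 libraries per mos11 fraction and 4 per Col-0 fraction. Over all genes the balance of directions changed with the scaling, as given above. The photosynthesis genes among the 18 had higher ratios in mos11, with 0.88 for PSAK, 0.53 for PSBW, 0.54 for LHCB2.1, 0.46 for LHCA2, 0.64 for LHCA3 and 0.54 for RBCS2B, and ERF6 had 1.63. Other photosynthesis genes named here were not called, among them PSAD-1 (0.44), RBCS3B (0.43), PSBX (0.16) and PGK1 (-0.03). Those of the 18 that lay towards the nucleus in Col-0 had lower ratios in mos11, with -2.32 for SS4, -1.14 for CYP83B1, -1.24 for AT4G16660, -1.37 for REV1, -0.89 for DCL1, -0.998 for ABCC8, -0.71 for CESA2, -1.31 for WRKY19, -1.52 for AT5G25560 and -2.14 for AT2G35750. AT1G05163, which lay towards the cytoplasm in Col-0, had -0.64. These genes were named for their division in Col-0, whose libraries enter this contrast, so the direction is not independent of that choice.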

How the results depend on the processing

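Counts of called genes depended most on scaling. With raw totals 10358 genes were higher in nuclei and 2442 in cytoplasm (6116 and 745 by at least 4-fold), and among genes that overlap no other, 3930 and 3271 (1618 and 1471), a smaller set by construction. The replicate block gave 6176 and 5033, and among the named genes changed the calls of DIN10 and PHOT1 alone. The all-gene median of 0.26 was 0.39 with RLE and with DESeq2, 1.55 with raw totals, 0.72 with no filter, 0.36 with a filter of 1 CPM, 0.37 without replicate 3 of both fractions and 0.25 to 0.40 with single libraries left out. Leaving out single libraries gave 5379 to 6373 genes higher in nuclei and 4523 to 4974 in cytoplasm. A total of 46 of 60 class medians and 112 of 117 named genes kept their sign in every setting run. Raw totals turned starch enzymes (0.60), initiation factors (0.012), aminoacyl-tRNA synthetases (0.82), cyclophilins (0.52), aquaporins (0.58), UDP-glycosyltransferases (0.20), splicing proteins (1.10), Aux/IAA and SAUR proteins (0.75), CHR1 (0.080), AGO4 (0.85) and MP (0.55). No filter turned splicing proteins (0.13) and AP2/ERF factors (-0.028), the 1 CPM filter AP2/ERF factors (-0.30), the 18-library fit AP2/ERF factors (-0.14), and genes without overlap splicing proteins (0.012) and DICER, ARGONAUTE and polymerase proteins (-0.17). A mean log2 CPM of at least 5, chosen after seeing the data, turned small heat shock proteins (0.58), MYB (-0.011), NAC (-0.34) and AP2/ERF factors (-0.40). This mean covers both fractions, so a gene high in a single fraction can reach it. With libraries left out nucleoporins ranged from -0.0185 to 0.117, NAC factors from -0.10 to 0.29, DIN10 from -0.12 to 0.77 and P5CS1 from -0.24 to 0.42, and P5CS1 was -0.11 with the replicate block. The cause was not tested. TIC was called in 6 of these settings beside those without replicate 3. Low cytoplasmic depth limits genes of few counts there.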
